A study of Homo sapiens with 16 samples.

Results

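The genes examined were the replication-dependent histone genes that lie in clusters in the human genome, measured in Nalm6, a human line of B-precursor acute lymphoblastic leukaemia, with 16 PrimeView expression arrays from Affymetrix. They were taken by symbol: H1-1 to H1-6 and every gene whose symbol begins H2AC, H2BC, H3C or H4C, each read by its brightest probe set that the platform assigns to that gene alone. This gave 61 genes of the 18132 tested: 6 for the linker histone H1, 15 for H2A, 18 for H2B, 10 for H3 and 12 for H4. The 4 groups, of 4 arrays each, were untreated control cells, control cells given prednisolone for 24 hours, untreated cells labelled CASP1, and cells labelled CASP1 given prednisolone for 24 hours. Prednisolone is a synthetic glucocorticoid, its dose being not given in the sources used here, and some labels name it as prednisone in a variant spelling. The genotype label states that the latter cells overexpress active CASP1, an inflammatory protease; no vector is named, nor whether either line is 1 clone.

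Core histones H2A, H2B, H3 and H4 form the protein spool around which DNA is wound, and H1 binds the DNA between spools. Dividing cells make them mostly in S phase, from clustered genes whose messenger RNAs usually end in a stem-loop bound by SLBP and not in a poly(A) tail. Some clustered genes also give polyadenylated transcripts, and H2A and H2B genes often lie back to back and share the DNA between their starts. The labels give the labelling kit by platform name only, so whether stem-loop ends, poly(A) ends or both were read was not measured. Many of these genes are near-identical copies, and 24 of the 61 were read by probe sets of the classes that the platform's suffixes mark as open to related transcripts. Values of single copies are uncertain for that reason.

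Without prednisolone the CASP1 signal was 7.75 ± 0.15 in control cells and 5.69 ± 0.25 in those labelled CASP1 (log2, SD, n = 4 each), a difference of -2.06, so it ran opposite to the label, and every direction below is given by label alone. NR3C1, the glucocorticoid receptor gene, rose with prednisolone, by 1.24 in the controls and 0.85 in the labelled cells. All 11 measured B-precursor markers lay above the median gene, as did 1 of 4 NK markers (NKG7) and 0 of 7 T-cell, 0 of 7 myeloid, 0 of 3 erythroid, 0 of 6 epithelial or stromal and 0 of 4 endothelial markers. The arrays numbered replicate 1 stood apart in every group: on the first principal component of the within-group deviations, which held 36.1% of their variance, they lay between -34.9 and -15.1 and the other arrays between 4.76 and 14.3. Counts without these 4 arrays are given beside those with them. The labels do not tie arrays to separate cultures, so the spread between arrays may be technical.

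By RefSeq coordinates (GRCh38.p14), 34 of the genes lie on chromosome 6 between 25726063 and 26285534 and 20 between 27132316 and 27893891. On chromosome 1, 4 lie between 149782689 and 149887965 and 2 between 228457364 and 228458558, and H4C16 lies alone on chromosome 12. All are protein-coding. The 250 bases upstream of the RefSeq start are printed for the 6 genes that changed with prednisolone in control cells, 5 that rose and then H4C8, which fell. Sequences are from RefSeq, GRCh38.p14, and read 5′ to 3′ on the gene's strand. Capitals mark CCAAT (the CCAAT box), TATAAA (the TATA box) and ATTTGCAT (the octamer read by POU factors such as OCT1), on either strand. On the other strand CCAAT reads ATTGG. The TATA box then reads TTTATA. The octamer then reads ATGCAAAT. The run TTTATAAA is 1 TATA match on each strand.
H2AC6, chr6:26123922-26124171, plus strand: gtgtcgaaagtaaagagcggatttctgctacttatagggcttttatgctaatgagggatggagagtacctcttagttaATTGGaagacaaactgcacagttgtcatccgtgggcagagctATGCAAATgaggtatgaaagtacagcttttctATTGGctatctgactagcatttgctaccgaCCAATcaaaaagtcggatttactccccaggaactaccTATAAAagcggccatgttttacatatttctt
H2AC8, chr6:26216671-26216920, plus strand: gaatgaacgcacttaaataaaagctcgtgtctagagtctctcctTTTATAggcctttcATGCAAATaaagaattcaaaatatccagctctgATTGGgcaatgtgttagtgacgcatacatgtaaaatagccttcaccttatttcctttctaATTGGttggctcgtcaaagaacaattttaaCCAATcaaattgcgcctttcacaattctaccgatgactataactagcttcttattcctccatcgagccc
H2AC11, chr6:27132793-27133042, plus strand: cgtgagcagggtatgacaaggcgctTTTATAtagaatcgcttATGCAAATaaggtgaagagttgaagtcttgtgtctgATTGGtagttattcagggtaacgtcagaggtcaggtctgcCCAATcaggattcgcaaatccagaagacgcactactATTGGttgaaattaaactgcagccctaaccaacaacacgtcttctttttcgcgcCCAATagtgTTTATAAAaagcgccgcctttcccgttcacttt
H2BC12, chr6:27146859-27147108, minus strand: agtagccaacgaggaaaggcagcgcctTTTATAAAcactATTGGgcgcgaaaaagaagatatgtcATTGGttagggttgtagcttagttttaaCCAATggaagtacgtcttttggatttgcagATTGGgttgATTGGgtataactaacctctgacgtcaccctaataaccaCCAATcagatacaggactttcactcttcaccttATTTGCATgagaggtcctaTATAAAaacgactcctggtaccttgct
H2BC21, chr1:149886683-149886932, minus strand: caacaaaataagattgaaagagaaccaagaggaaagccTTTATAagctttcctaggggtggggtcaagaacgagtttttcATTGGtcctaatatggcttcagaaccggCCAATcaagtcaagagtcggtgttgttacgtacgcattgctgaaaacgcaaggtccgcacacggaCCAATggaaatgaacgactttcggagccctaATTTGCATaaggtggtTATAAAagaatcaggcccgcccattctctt
H4C8, chr6:26285535-26285784, minus strand: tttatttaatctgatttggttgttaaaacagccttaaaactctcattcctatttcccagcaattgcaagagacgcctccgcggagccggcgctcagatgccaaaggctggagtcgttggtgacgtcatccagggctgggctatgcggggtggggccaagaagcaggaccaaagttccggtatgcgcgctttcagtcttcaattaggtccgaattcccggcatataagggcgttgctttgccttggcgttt

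A promoter window was found for 56 of the 61 genes, and the same 250 bases were searched in 35116 RefSeq promoters. The CCAAT box stood in 49 of the 56 (87.5%) against 32.0% of all promoters, in all H1, H2A, H2B and H3 windows and in 3 of 10 H4 windows. TATAAA stood in 36 (64.3%) against 10.7%. The octamer stood in 26 (46.4%) against 1.63%: in 11 of 14 H2A, 14 of 18 H2B and 1 of 8 H3 windows, and in 0 of 6 H1 and 0 of 10 H4 windows. AAACACA, the H1 box, stood in all 6 H1 windows and in no other member's, against 4.82% of all promoters. The E2F forms TTTCCCGC and TTTGGCGC stood in 1 and 0 windows, against 1.39% and 0.550%, and the glucocorticoid response element in 0, against 0.327%. Neighbouring H2A and H2B windows largely hold the same bases, so their matches are not separate counts. The 1 H3 window with the octamer was that of H3C4. It shares its start base and strand with H2AC7, so the same window was counted for both.

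All 5 genes that rose in control cells held the CCAAT box, TATAAA and the octamer, in H2BC12 and H2BC21 with the octamer starting 46 bases before the RNA start. In H2AC6, H2AC8 and H2AC11 the octamer lay on the other strand, 130, 192 and 208 bases before the RNA start. The only TATA box match of H2AC8 was also on the other strand, 206 bases before its start. The same bases lie 32 (TATA box) and 48 (octamer) bases before the start of its partner H2BC8, which did not rise. Likewise the octamer of H2AC11 lies 47 bases before the start of H2BC11, which did not rise either. The octamer was not limited to the 5 genes: it also stood in 20 of the 27 other H2A and H2B windows. The window of H4C8 held none of the motifs searched. These are letter matches in 1 window and say nothing of binding.

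Most of the genes gave low signal. The median member had a mean log2 signal of 3.84 against 5.48 for the median gene, 11 of 61 lay above that gene median, and 31 were among the dimmest 30% of genes. Low signal compresses differences on this scale, and signals of different probe sets do not rank RNA amounts. At the other end, H4C3 had a mean of 13.89, close to the highest signal on any array, 14.28, so a rise there could be compressed.

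The first question was what prednisolone did to these genes in control cells. Of the 61, 5 rose and 1 fell, by limma with Benjamini-Hochberg adjustment over all genes at an adjusted p under 0.05. That is 8.20% and 1.64% of members, against 5.73% and 8.43% of all genes tested, so the share that rose was near the background. Those that rose were 3 H2A genes (H2AC6, H2AC8, H2AC11) and 2 H2B genes (H2BC12, H2BC21). The 1 that fell was H4C8, and none of the 6 H1 or 10 H3 genes passed. The median member difference was -0.03 against -0.01 over all genes, and 26 of 61 lay above 0. In bulk RNA, fewer cells in S phase and less RNA per cell cannot be told apart. Groups did not overlap for 6 higher and 3 lower members, against 9.07% and 11.8% of all genes. Without the replicate 1 arrays 6 rose, H2BC5 being the addition, and 1 fell, with 8.80% and 13.1% of all genes called.

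H2BC21, an H2B gene on chromosome 1 (149884459 to 149886682), had the largest difference of the 61 in control cells. Its log2 signal was 3.81, 4.28, 4.27 and 4.35 on the untreated control arrays and 6.01, 5.49, 5.56 and 5.84 with prednisolone. All treated control arrays lay above all untreated ones. The difference was 1.54 (SE 0.14), or 2.92-fold, with an adjusted p of 2.7e-07 by limma. On the untreated arrays of cells labelled CASP1 it read 5.79, 5.75, 5.89 and 5.93, and with prednisolone 6.28, 6.34, 6.74 and 6.52. Those groups did not overlap either, and the rise was 0.63 (adjusted p 0.0077), or 1.55-fold. The rise was smaller there by 0.91: the interaction was -0.91 (SE 0.19, adjusted p 0.029 by limma). Its other probe sets read near the lowest signals. With all of them averaged the rise was 0.59 in control cells (adjusted p 0.0029) and 0.20 in cells labelled CASP1 (adjusted p 0.45), and the interaction was -0.39 (adjusted p 0.43). Leaving out any of 5 single arrays also ended it.

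H2AC6, an H2A gene of the first chromosome 6 group (26124172 to 26124690), read 4.62, 4.81, 4.81 and 5.04 untreated and 6.18, 6.29, 6.18 and 5.91 treated in control cells. All treated arrays lay above all untreated ones. The rise was 1.32 (SE 0.14), or 2.49-fold, with an adjusted p of 2.0e-06 by limma. Cells labelled CASP1 gave 5.71, 6.26, 6.33 and 6.31 untreated and 6.79, 6.71, 6.73 and 6.39 treated, a rise of 0.50 (adjusted p 0.036). The call was lost in 7 of 26 alternatives, and without the replicate 1 arrays the rise was 0.31 (adjusted p 0.11). The interaction was -0.82 with all arrays (adjusted p 0.059) and -0.93 without them (adjusted p 0.0052).

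H2BC12 lies at 27138293 to 27146858 on chromosome 6, and its RefSeq span of 8566 bases, unusually long for a histone gene, overlaps H4C9 on the other strand by 397 bases. Its untreated control arrays read 6.76, 6.72, 6.69 and 6.70 and the treated ones 7.72, 7.64, 7.47 and 7.45. The groups did not overlap. The difference was 0.85 (SE 0.09), or 1.80-fold, with an adjusted p of 3.1e-06 by limma. In cells labelled CASP1 the arrays read 8.34, 8.54, 8.45 and 8.43 untreated and 9.17, 8.76, 8.92 and 8.86 treated, a rise of 0.49 (adjusted p 0.0027). A dimmer second probe set of the gene did not move this way in control cells: it differed by -0.38 (adjusted p 0.38), and with both averaged the gene's difference was 0.23 (adjusted p 0.27) in control cells and 0.14 (adjusted p 0.64) in cells labelled CASP1, so both calls were lost.

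H2AC11, at 27133043 to 27133535 on chromosome 6, read 4.73, 4.0, 4.19 and 4.10 untreated and 5.42, 5.17, 5.24 and 5.06 treated in control cells. Its untreated replicate 1 was the highest of its group, yet all treated arrays were higher. The rise was 0.97 (SE 0.13), or 1.95-fold, with an adjusted p of 3.4e-05 by limma. In cells labelled CASP1 it read 5.18, 5.13, 5.02 and 5.22 untreated and 5.66, 5.50, 5.76 and 5.62 treated, a rise of 0.50 (adjusted p 0.026) that was lost without any of 4 single arrays of these cells. Its other probe set differed by -0.22 (adjusted p 0.78) in control cells, and the mean of both by 0.37 (adjusted p 0.19).

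H2AC8, an H2A gene of the first chromosome 6 group, read 4.80, 4.45, 4.56 and 4.58 untreated and 5.05, 5.30, 5.32 and 4.91 treated in control cells. The groups did not overlap. The rise was 0.55 (SE 0.13), or 1.46-fold, with an adjusted p of 0.0075 by limma. In cells labelled CASP1 the arrays read 5.32, 5.32, 5.26 and 5.43 untreated and 6.05, 5.80, 5.54 and 5.37 treated. These groups overlapped, and the difference of 0.36 did not pass (adjusted p 0.13). With its probe sets averaged the differences were 0.35 (adjusted p 0.038) and 0.38 (adjusted p 0.043).

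H4C8, an H4 gene at 26285126 to 26285534 on chromosome 6, went the other way. Control arrays read 4.57, 4.50, 4.48 and 4.39 untreated and 4.18, 3.98, 4.05 and 3.76 treated. The groups did not overlap, and it fell by 0.49 (SE 0.15, adjusted p 0.031 by limma). In cells labelled CASP1 it read 5.10, 4.66, 4.45 and 4.76 untreated and 5.58, 5.32, 4.84 and 5.09 treated, groups that overlapped, with a difference of 0.47 (adjusted p 0.075, and 0.010 with a term for the replicate 1 arrays). The 2 differences parted by 0.96 (SE 0.21, adjusted p of the interaction 0.036). Both calls were fragile: leaving out any of 6 single control arrays ended the first, and 13 of 25 alternatives ended the second.

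**Figure D1:**
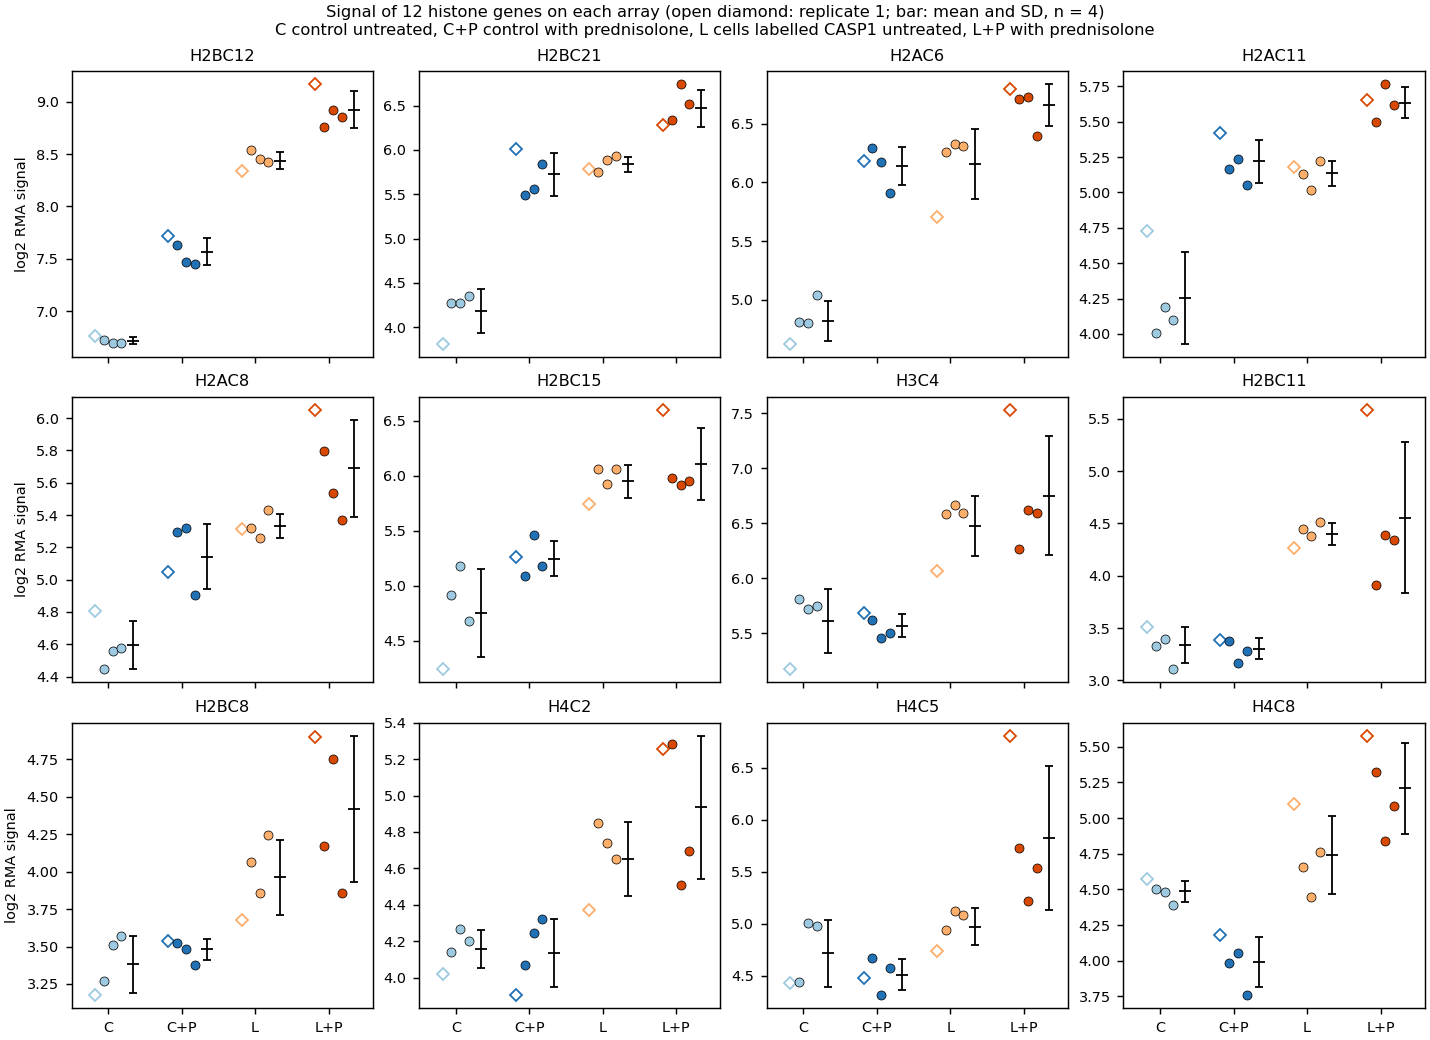
Log2 RMA signal (vertical axes, separate scales) of 12 histone genes on each of the 16 arrays, by group (horizontal axes): C control untreated, C+P control with prednisolone, L cells labelled CASP1 untreated, L+P the same with prednisolone. Open diamonds are replicate 1 and bars the mean with SD (n = 4). H2BC12, H2BC21, H2AC6 and H2AC11 rise from C to C+P without overlap, and replicate 1 is the highest L+P array of H2BC11, H4C5 and H3C4.

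In cells labelled CASP1, 6 of the 61 rose with prednisolone and 0 fell, or 9.84% higher against 2.99% of all genes, with 3.35% of all genes lower. Groups did not overlap for 7 higher and 0 lower members, against 5.31% and 6.56% of all genes. The median member difference was 0.18 against 0.02 over all genes, and 49 of 61 lay above 0. H2AC6, H2AC11, H2BC12 and H2BC21 rose here as in control cells, where the arrays are different but the variance estimate of each gene is shared. Of all genes, 2.16% rose in both. The other 2 were H3C11, an H3 gene, at 0.60 (adjusted p 0.011), and H4C5, an H4 gene, at 0.85 (adjusted p 0.043). H4C5 read 4.74, 4.94, 5.12 and 5.09 untreated and 6.81, 5.73, 5.22 and 5.53 treated, so the groups did not overlap but replicate 1 was far the highest. Without that array its rise was 0.52 (adjusted p 0.058), and the call was lost in 15 of 26 alternatives. Leaving out replicate 2, 3 or 4 of the treated control cells also ended it, so calls in the 2 kinds of cell are not independent. Fitted on the arrays of the compared groups alone, H2AC6 and H4C5 did not pass in cells labelled CASP1 (adjusted p 0.11 and 0.15 by limma).

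Replicate 1 of the treated cells labelled CASP1 was the highest of its group for 37 of the 61 genes, by a median of 0.25 over the mean of the other 3 arrays. Without all replicate 1 arrays the median member difference fell from 0.18 to 0.08 and 5 genes rose (H2AC11, H2BC12, H2BC21, H3C11 and H4C8), with 5.77% of all genes called higher. Without replicate 2 of the untreated cells labelled CASP1 only 3 were called. The part of these arrays in the other members' values was not tested.

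**Figure D2:**
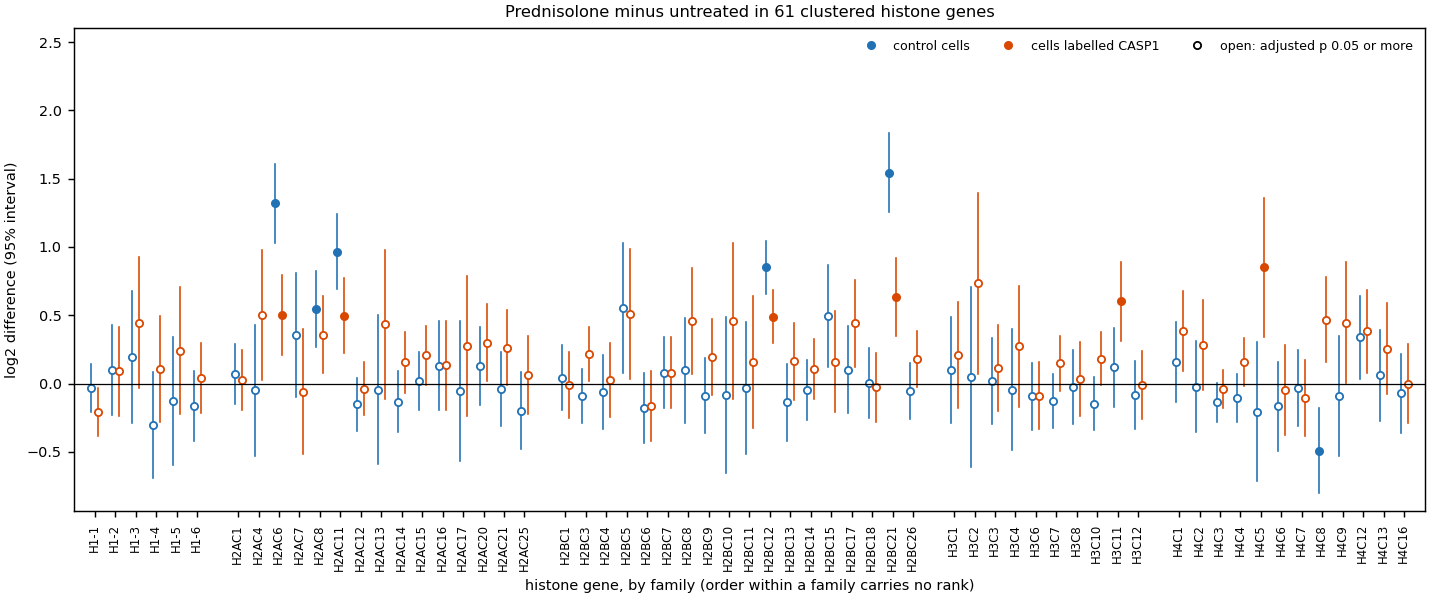
Log2 difference, prednisolone minus untreated, with 95% intervals (vertical axis) for each of the 61 genes by family (horizontal axis), in control cells (blue) and cells labelled CASP1 (orange); open circles had an adjusted p of 0.05 or more. H2AC6 and H2BC21 stand highest in control cells at 1.32 and 1.54, and most other genes lie near 0.

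Genes of DNA replication fell with prednisolone for the most part. Of 50 measured DNA replication genes, 45 fell (90%) and 1 rose (2%) with prednisolone in control cells, with a median of -0.85. Of all genes, 8.43% fell and 5.73% rose there. UNG, a uracil-removing repair enzyme, fell by 2.11, and GINS2 and CDC45, parts of the replicative helicase, fell by 1.70 and 1.48; POLA2, a subunit of the primase complex, rose by 1.59. In cells labelled CASP1, 26 fell (52%) and 1 rose (2%), against 3.35% and 2.99% of all genes, with a median of -0.40. The difference between these genes and the histone genes was not tested.

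Of 35 genes that supply or process histone messenger RNA, 13 fell (37.1%) and 2 rose (5.71%) in control cells, against 8.43% and 5.73% of all genes. Of the same 35, 2 fell (5.71%) and 1 rose (2.86%) in cells labelled CASP1, near the 3.35% and 2.99% of all genes. SLBP, which binds the stem-loop, fell by 0.88 and 0.79 in the 2 kinds of cell, with adjusted p of 3.8e-06 and 3.8e-05 by limma. CDC25A, a phosphatase that activates cyclin-dependent kinases, fell by 1.55 and 0.76. In control cells CCNE1, the cyclin that drives entry into S phase, fell by 0.99 and its partner CDK2 by 0.58. LSM10, a subunit of the U7 particle that cuts histone RNA ends, rose by 0.43 in cells labelled CASP1.

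Histone chaperones, which carry new histones to DNA, fell in 15 of 29 cases in control cells and 9 of 29 in cells labelled CASP1. In either kind of cell 0 rose. The shares over all genes were 8.43% lower and 5.73% higher in control cells, and 3.35% and 2.99% in cells labelled CASP1. MMS22L, RBBP7 and the CAF-1 subunits CHAF1A and CHAF1B fell by 1.17, 0.98, 1.08 and 0.92 in control cells. Of 15 variant histones, which are made outside the clusters, 2 rose and 2 fell in control cells, 13.3% each way against 5.73% and 8.43% of all genes. H3-5, a variant related to H3.3, rose by 1.47, and H1-10 by 0.31, and H2AZ1 and MACROH2A1 each fell by 0.44. H3-5 is a near copy of another variant gene, so its probe set may read both.

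With prednisolone in control cells, no neighbouring H2A and H2B genes passed together. There were 12 pairs with spans 193 to 247 bases apart, 11 of them head to head and 1 with a strand missing from the table. In this comparison 5 pairs had 1 gene that rose, 0 had both and 7 had none, and 5.73% of all genes rose. Every one of the 5 genes that rose belonged to such a pair, but so did most of the 15 H2A and 18 H2B genes. How many pairs would hold 2 called genes by chance was not computed, and with 5 calls it would be few. H2AC6 differed by 1.32 and its partner H2BC4 by -0.06 (95% interval -0.33 to 0.21). H2AC11 differed by 0.97 and H2BC11 by -0.03, H2AC8 by 0.55 and H2BC8 by 0.10, H2BC12 by 0.85 and H2AC12 by -0.15. With each gene's probe sets averaged, the calls of H2AC11 and H2BC12 were lost, at 0.37 and 0.23 (adjusted p 0.19 and 0.27 by limma). H2BC21 differed by 1.54 and H2AC20 by 0.13 (95% interval -0.15 to 0.42).

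Between the untreated cells both genes passed in 3 pairs, 1 in 5 and none in 4. The difference within a pair was not tested. H2BC4 read between 2.55 and 2.74 on the untreated control arrays and H2AC12 between 2.31 and 2.62, both low signals. From that level H2BC4 was 0.54 higher in untreated cells labelled CASP1 (adjusted p 0.0078 by limma). H2AC20 was brighter: it read between 5.67 and 6.09 untreated and between 5.96 and 6.20 treated, which overlap, while H2BC21 next to it moved from a mean of 4.18 to 5.72. Its interval leaves room for a rise of up to 0.42.

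**Figure D3:**
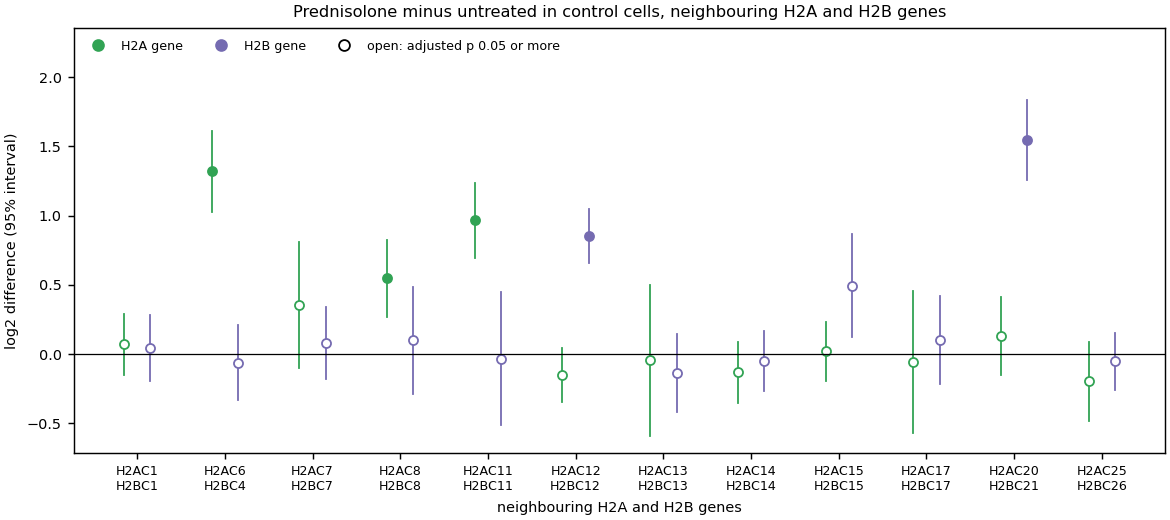
Log2 difference, prednisolone minus untreated in control cells, with 95% intervals (vertical axis) for 12 neighbouring H2A (green) and H2B (purple) genes (horizontal axis); open circles had an adjusted p of 0.05 or more. In 5 pairs 1 gene is called, and in 0 pairs both are.

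The second question was how the cells labelled CASP1 differed from control cells. Untreated, 13 of the 61 genes were higher in the labelled cells and 0 lower, 21.3% higher against 5.87% of all genes, with 8.20% of all genes lower. They were 5 H2A, 6 H2B, 1 H3 and 1 H4 genes, and 0 of 6 H1 genes. With prednisolone 20 were higher and 0 lower, 32.8% against 7.88%, with 8.52% of all genes lower: 1 H1, 4 H2A, 7 H2B, 3 H3 and 5 H4 genes. The median member differences were 0.15 untreated and 0.31 treated, against 0.01 and 0.04 over all genes. Without the replicate 1 arrays the member medians were 0.11 and 0.21. Groups did not overlap for 13 higher and 0 lower members untreated, against 9.89% and 11.8% of all genes, and for 28 higher and 1 lower treated, against 10.1% and 9.56%. Without the replicate 1 arrays 16 were higher and 1 lower untreated and 23 and 1 treated, H2AC20 being the lower one both times, with 8.53% and 11.6% of all genes higher.

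These untreated and treated comparisons share no arrays, but the variance of each gene was taken from all groups, so their calls are not independent. Higher in both were 12 genes, against 3.25% of all genes: H2AC6, H2AC8, H2AC11, H2AC17, H2BC4, H2BC8, H2BC11, H2BC12, H2BC15, H2BC21, H3C4 and H4C2. H2AC7 passed untreated and not treated, and H1-4, H2BC3, H3C1, H3C11, H4C1, H4C4, H4C5 and H4C8 passed treated and not untreated. A difference between the comparisons was tested only by the interaction, which H4C8 alone of them passed. Each shares the untreated or the treated control arrays with a prednisolone comparison, so a low control value enters both. Fitted on the arrays of the compared groups alone, 13 of the 13 untreated and 18 of the 20 treated calls were kept.

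The counts were also split by signal level, and the difference between the classes was not tested. Among the 11 members above the gene median, 5 were higher untreated and 5 treated, against 9.68% and 12.2% of all genes so placed. Among the 50 below it, 8 and 15 were higher, against 2.06% and 3.58%. The 7 members with a RefSeq span over 1000 bases were H2BC4, H2BC5, H2BC12, H2BC18, H2BC21, H3C4 and H3C6. Of these, 4 (57.1%) were higher in each comparison, and of the 54 shorter ones 9 (16.7%) and 16 (29.6%). Of all genes, 5.87% and 7.88% were higher. H2BC5, H2BC12, H2BC21 and H3C4 also lay above the gene median, so span and signal were not separated.

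H2BC12 and H2BC21, whose values on each array stand above, were 1.72 (SE 0.09) and 1.66 (SE 0.14) higher in untreated cells labelled CASP1, 3.30-fold and 3.16-fold, with adjusted p of 1.5e-09 and 3.9e-07 by limma. With prednisolone the differences were 1.36 and 0.75. H2AC6 was 1.33 higher untreated (adjusted p 4.7e-06) and 0.52 treated, H2AC11 0.88 and 0.41, and H2AC8 0.74 and 0.55. The treated difference of H2AC11 was lost without any of 6 single treated arrays. Of the interactions of these 5 genes, that of H2BC21 passed with all arrays. Without the replicate 1 arrays those of H2AC6, H2AC11, H2BC12 and H2BC21 passed, at -0.93, -0.55, -0.44 and -0.65 (adjusted p 0.0052, 0.027, 0.033 and 0.034). With each gene's probe sets averaged, the untreated differences of H2BC12, H2BC21, H2AC11 and H2AC8 were 1.0, 0.63, 0.65 and 0.43. The treated ones of H2BC12, H2BC21 and H2AC11 were 0.90, 0.25 (adjusted p 0.21) and 0.88. So averaged, with all arrays, the interaction of H2AC11 had the other sign, at 0.22 (adjusted p 0.83 by limma). Those of H2BC12, H2BC21 and H2AC6 were then -0.10, -0.39 and -0.82 (adjusted p 0.92, 0.43 and 0.046).

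With all arrays, H2BC15, H2BC11, H3C4, H2BC8 and H4C2 passed between the cells and not with prednisolone. H2BC15, an H2B gene, read 4.24, 4.91, 5.18 and 4.68 in untreated control cells and 5.75, 6.06, 5.93 and 6.07 in untreated cells labelled CASP1. The groups did not overlap, at 1.20 (SE 0.18, adjusted p 0.00014 by limma). With prednisolone it read 5.26, 5.08, 5.46 and 5.18 against 6.60, 5.98, 5.91 and 5.95, a difference of 0.86 (adjusted p 0.0022).

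H2BC11, the H2B partner of H2AC11, read 3.51, 3.33, 3.40 and 3.11 against 4.27, 4.45, 4.38 and 4.51 untreated. These low signals did not overlap, at 1.06 (adjusted p 0.0039 by limma). Treated, it read 3.38, 3.38, 3.17 and 3.28 against 5.58, 3.91, 4.38 and 4.34, a difference of 1.25 (adjusted p 0.00096). Read by a probe set of the class less open to related transcripts, its untreated difference was 0.36 (adjusted p 0.40), and with its probe sets averaged 0.67 (adjusted p 0.060).

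H3C4, an H3 gene, read 5.17, 5.81, 5.72 and 5.74 against 6.07, 6.59, 6.66 and 6.59 untreated. The groups were apart, by 0.87 in the means (adjusted p 0.0089 by limma), and replicate 1 was the lowest in each. Treated, it read 5.68, 5.62, 5.45 and 5.50 against 7.53, 6.27, 6.62 and 6.59, a difference of 1.19 (adjusted p 0.00074). Its RefSeq span covers all 510 bases of H2AC7 on the same strand, so the signals of the 2 genes cannot be told apart where they overlap. H2AC7 was 0.97 higher untreated (adjusted p 0.0049).

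H4C5 read 4.43, 4.44, 5.01 and 4.98 in untreated and 4.48, 4.67, 4.31 and 4.58 in treated control cells. Against the values given above for cells labelled CASP1, the treated groups did not overlap and differed by 1.31 (adjusted p 0.00099 by limma), and the untreated ones overlapped and differed by 0.26 (adjusted p 0.60). H4C8 had the same shape, at 1.21 treated (adjusted p 2.2e-05) and 0.25 untreated (adjusted p 0.32).

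H2BC8 lies next to H2AC8. It read 3.18, 3.27, 3.51 and 3.57 against 3.68, 4.07, 3.86 and 4.25 untreated, and 3.53, 3.52, 3.49 and 3.38 against 4.90, 4.17, 4.76 and 3.86 treated. Neither pair of groups overlapped, with differences of 0.58 (adjusted p 0.041 by limma) and 0.94 (adjusted p 0.0016). H4C2, an H4 gene, read 4.02, 4.14, 4.27 and 4.20 against 4.37, 4.85, 4.74 and 4.65 untreated, and 3.90, 4.07, 4.25 and 4.32 against 5.26, 5.28, 4.51 and 4.69 treated. Its groups did not overlap either, with differences of 0.49 (adjusted p 0.043) and 0.80 (adjusted p 0.0017). The untreated calls of both genes were close to the threshold and were lost without several single arrays.

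**Figure D4:**
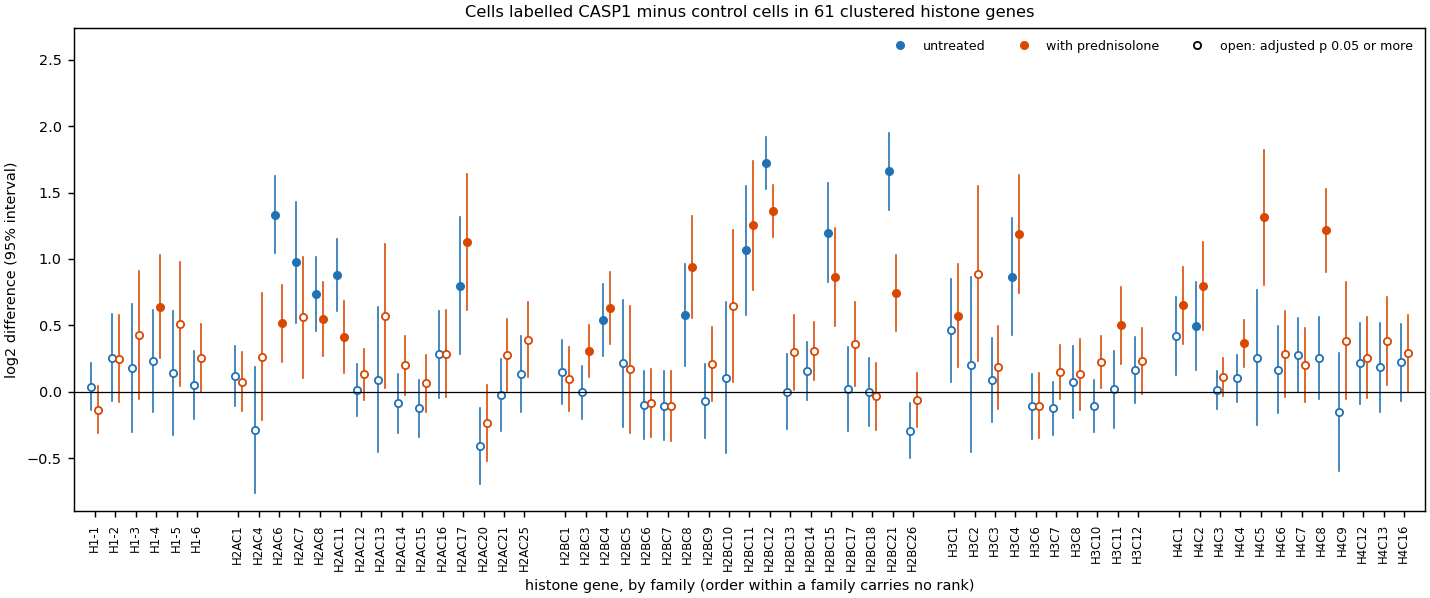
Log2 difference, cells labelled CASP1 minus control cells, with 95% intervals (vertical axis) for each of the 61 genes by family (horizontal axis), untreated (blue) and with prednisolone (orange); open circles had an adjusted p of 0.05 or more. All filled circles lie above 0, and H2BC12 stands highest at 1.72 untreated.

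The brightest H1 and H4 genes passed in no comparison with all arrays and the settings used throughout. H1-2 read 6.43, 6.71, 6.57 and 6.86 in untreated and 6.34, 7.05, 6.85 and 6.73 in treated control cells. It read 6.46, 7.18, 6.98 and 6.98 in untreated cells labelled CASP1 and 6.81, 7.15, 7.02 and 6.98 in treated ones. The groups overlapped in every comparison, and the 95% interval for prednisolone in control cells was -0.23 to 0.43. Without the replicate 1 arrays it was 0.33 higher in untreated cells labelled CASP1 (adjusted p 0.031 by limma). H4C3 read 13.89, 13.93, 13.92 and 13.96 in untreated and 13.74, 13.84, 13.81 and 13.76 in treated control cells, which do not overlap, with a difference of -0.14 (adjusted p 0.23 by limma). With limma's trended and robust variances the adjusted p of that difference was 0.027. It read 13.93, 13.94, 13.93 and 13.95 in untreated cells labelled CASP1 and 13.80, 13.95, 13.90 and 13.95 in treated ones, which overlap.

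The replication genes also differed between the cells. Untreated, 16 of 50 replication genes (32%) were lower in cells labelled CASP1 and 1 (2%) higher, against 8.20% and 5.87% of all genes. With prednisolone 19 (38%) were higher and 1 (2%) lower, against 7.88% and 8.52%. The interaction called 12 of 50 higher and 0 lower, and the median interaction was 0.51, against 0.19 for the 61 histone genes and 0.03 for all genes. Among the histone genes 1 interaction was higher (H4C8) and 1 lower (H2BC21), against 0.524% and 0.364% of all genes (0.888% in either direction). Without the replicate 1 arrays 1 was higher (H4C8) and 4 lower (H2AC6, H2AC11, H2BC12 and H2BC21), against 2.72% and 1.29%. The median interaction of the 61 histone genes was then 0.08. Among treated cells, CDT1, which licenses replication origins, was 1.17 higher in those labelled CASP1 than in control cells. HJURP, the chaperone of the centromeric variant CENPA, was 1.21 higher in the same comparison. CENPA itself was 0.58 higher in cells labelled CASP1 untreated and 0.68 treated.

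Of the 9 probe sets shared by several histone genes and left out of the 61, 4 rose with prednisolone in control cells, and the other 5 did not pass, with differences from -0.29 to 0.04. In the fit by gene 5.73% of all genes rose there, and the share over all probe sets was not computed. The 4 that rose included 2 for the same pair, H2AC18 and H2AC19. One read 6.33, 6.56, 6.58 and 6.56 untreated and 7.85, 7.79, 7.61 and 7.64 treated in control cells, and 8.17, 8.11, 8.09 and 8.15 untreated and 9.07, 8.74, 8.94 and 8.81 treated in cells labelled CASP1. The 4 groups did not overlap at any step. Prednisolone raised it by 1.22 and 0.76, and it was 1.62 higher in untreated cells labelled CASP1, with adjusted p of 6.1e-08, 4.5e-05 and 6.0e-09 by limma over all 49395 probe sets. The second differed by 0.995, 0.73 and 1.50 in the same comparisons.

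One of the 2 probe sets shared by H4C14 and H4C15 rose by 1.10 (adjusted p 0.00055) in control cells and differed by 0.50 (adjusted p 0.17) in cells labelled CASP1. The other, a dimmer one, differed by -0.29 (adjusted p 0.35) and 0.01. One shared by H4C11 and H4C12 rose by 0.73 and 0.79 and differed by 0.06 between untreated cells (adjusted p 0.90). Which gene of a pair gave the signal cannot be told apart.

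**Figure D5:**
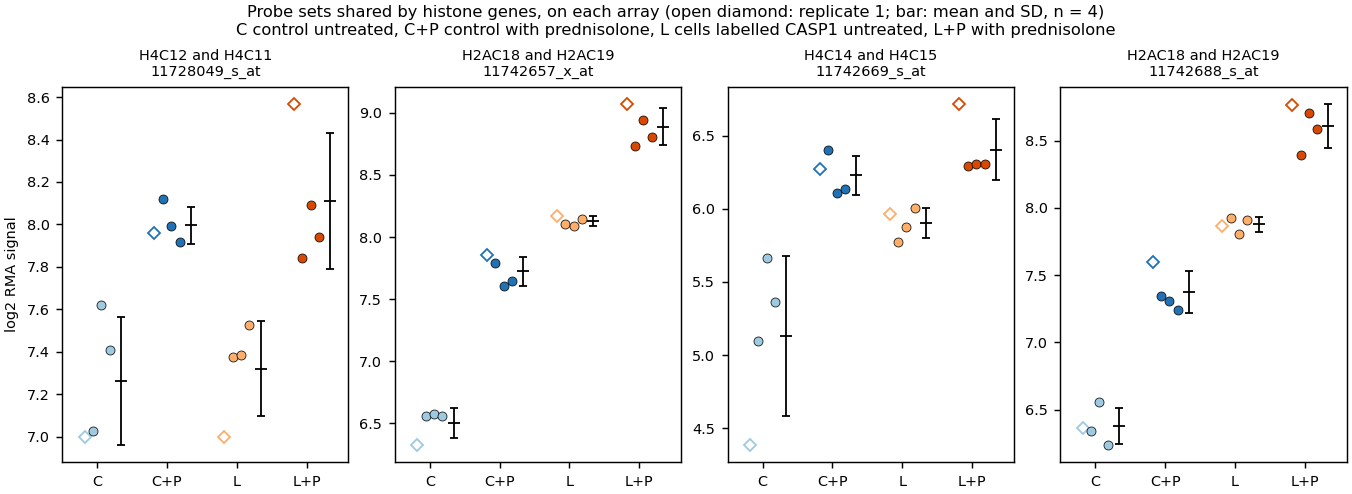
Log2 RMA signal (vertical axes, separate scales) of the 4 shared probe sets that rose in control cells, each reading 2 histone genes, on each array by group (horizontal axes): C control untreated, C+P control with prednisolone, L cells labelled CASP1 untreated, L+P the same with prednisolone. Open diamonds are replicate 1 and bars the mean with SD (n = 4). Both probe sets of H2AC18 and H2AC19 rise at each step from C to C+P to L to L+P, and those shown for the H4 pairs are lower untreated than treated in both kinds of cell.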

How the data were processed

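Total RNA of 16 Nalm6 samples, 4 in each of 4 groups, was hybridised to Affymetrix PrimeView arrays, per the labels' protocols. Values were deposited as log2 signals of probe sets; the authors used RMA, per the submitters' processing notes, in a version not given in the sources used here. This method sets arrays to a common scale, so RNA per cell was not measured, and array medians lay between 4.85 and 4.93.

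Of 49395 probe sets, those naming 1 gene were kept and the brightest over all arrays stood for each of 18132 genes; 104 single-gene probe sets covered the 61 histone genes, of which 29 had several, and 9 shared probe sets and 1 pseudogene were left out. All 61 matched RefSeq by Entrez identifier. Group means were fitted with limma 3.58.1 in R 4.3.3 (lmFit, eBayes; 4 groups, no block, residual df 12), giving 5 contrasts, with Benjamini-Hochberg adjustment over all genes and calls at an adjusted p under 0.05. The number of arrays limits the precision. The code was tested on simulated data.

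Members and lists were chosen with earlier results of these data known. Values on every array are given for the brightest gene of each of the 5 families and for up to 12 called genes by smallest adjusted p; other members are given by name, counts, ranges or differences. Other genes named are CASP1, NR3C1 and up to 4 called genes per related list with the largest differences. Alternatives were another normalization, another centring, probe set choice, a filter on dim genes, fewer arrays, another variance model, a replicate block and leaving out arrays.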

Additional observations from a re-analysis of the deposited data

Results flagged for a closer look

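In 5 of 56 groups of 4 arrays looked at among the genes described on every array, 1 array lay far from the other 3, by a gap-to-range ratio past Dixon's 95% critical value, which chance passes in about 1 group of 20, and all 5 were replicate 1. In untreated control cells H2BC21 read 3.81 against 4.27 to 4.35 on the other arrays, and H3C4 5.17 against 5.72 to 5.81. In untreated cells labelled CASP1 H2AC6 read 5.71 against 6.26 to 6.33, and H3C4 6.07 against 6.59 to 6.66. In treated cells labelled CASP1 H2BC15 read 6.60 against 5.91 to 5.98.

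With all arrays the prednisolone response differed between the cells for H2BC21 and H4C8. Their interactions were -0.91 and 0.96 (adjusted p 0.029 and 0.036 by limma). Both calls were fragile, being lost in 6 and 13 of 25 alternatives.

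Probe sets outside the main measurement moved in control cells: 1.22 and 0.995 for the 2 shared by H2AC18 and H2AC19, 1.10 for 1 of the 2 shared by H4C14 and H4C15, whose other differed by -0.29, and 0.73 for the 1 shared by H4C11 and H4C12. The other shared probe sets did not pass there.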

How the results depend on the processing

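Across 26 alternatives, counts of called members stayed within 1.5 times the reported ones except for the interaction and 1 single-array removal. The interaction count of 2 became 1 after a further quantile normalization and 5 without the 4 arrays of replicate 1. Leaving out 1 array at a time gave 5 to 8 calls for prednisolone in control cells, 3 to 8 in cells labelled CASP1 (3 without replicate 2 of untreated cells labelled CASP1), 10 to 16 for the untreated and 17 to 23 for the treated difference between cells, and 0 to 3 for the interaction. The interaction had 0 calls without replicate 4 of treated control cells, replicate 2, 3 or 4 of untreated cells labelled CASP1, or replicate 2 of treated ones. The labels do not say that replicate numbers pair arrays, and the correlations of same-numbered deviations ran from 0.19 to 0.51 (median 0.39) for number 1, -0.05 to 0.26 (0.17) for 2, -0.05 to 0.26 (0.12) for 3 and -0.12 to 0.26 (0.08) for 4. A replicate block gave 6, 6, 16, 22 and 3 calls, and among the genes described on every array it ended the prednisolone call of H4C5 in cells labelled CASP1 and gave calls to H4C8 there (adjusted p 0.015) and to the interaction of H2AC6 (0.047). All 4 replicate 1 arrays correlated best with an array of their own number, as did 2, 1 and 1 of numbers 2 to 4, a hint from the data, not the design. Of 70 named values, 35 of them called, no sign of a called value changed; 1695 value-setting pairs kept their side of the threshold, 84 lost it and 22 gained it. Averaging a gene's probe sets ended calls of H2BC12, H2AC11, H2BC21 and H2BC11, as given with those genes. The cause was not tested. Most members read below the median gene, which limits what these arrays can show.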
